A study of Caenorhabditis elegans with 83 samples.

Results

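The module described here holds 65 Caenorhabditis elegans genes, of 20449 gene rows counted in the SX1263 background, whose small RNAs were low in met-2 mutants in each of 3 generations. The members were chosen on SX1263 control libraries alone. Levels in CPM (counts per gene scaled to one common library total, summed over all gene rows) had to average at least 10 in wild-type controls at each of P0, F3 and F15. The met-2 control mean had to be at or under 0.25 of the wild-type control mean at each of the same generations. Of the 78 genes that met both conditions, 8 F-box genes (names beginning fbxa, fbxb or fbxc) and 5 others (pdfr-1, E02H9.9, H09G03.1, Y55D5A.1 and Y55D5A.4) were left out by name. Since those 18 control libraries chose the members, their values are a description, and the tests below use other libraries.

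The libraries hold small RNAs of whole day 1 adults raised at 20 degrees. SX1263 and EG6089 are the 2 strain backgrounds, both GFP strains. SX1263 was sampled as wild type, with the met-2 allele n4256, with the set-25 allele n5021, and with both alleles as a double mutant, and EG6089 as wild type and as the same double mutant. P0 animals were fed bacteria making double-stranded RNA against GFP ("anti-GFP") or bacteria with an empty vector ("control"), and F3 and F15 are their descendants, grown on standard bacteria. F15 was sampled in SX1263 wild type and met-2 alone. Each group had 3 libraries, except the wild-type SX1263 anti-GFP P0 group, which had 2 here, named replicates 1 and 3. The labels give 1 strain per genotype and do not say whether replicates were separate cultures, so the p-values measure the spread between these libraries, which may be technical. They also give 2 library kits without saying which library used which, and any part of the kit in a result was not tested.

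MET-2 is the worm relative of SETDB1 and adds mono- and dimethyl groups to lysine 9 of histone H3, while SET-25 can carry the mark on to trimethylation. Most small RNAs that match C. elegans genes in the antisense direction are secondary small RNAs, which RNA-dependent RNA polymerases copy from a target transcript and which Argonaute proteins carry. Some of those Argonautes act in the nucleus, where they silence transcription and recruit histone H3 lysine 9 methylation, and the small RNAs themselves can be inherited. A count here is therefore a level of small RNA on a gene, not of its messenger RNA.

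In the control libraries that chose the members, the ratio of met-2 to wild type had a median of 0.157 at P0 (range 0.0247 to 0.249), 0.146 at F3 (0.0163 to 0.248) and 0.0746 at F15 (0.0123 to 0.249). The wild-type medians over members were 63.6, 65.1 and 44.5 CPM at P0, F3 and F15. The members just inside the threshold were Y41E3.6, F31D4.5 and nhr-81, whose largest ratios of the 3 generations were 0.248, 0.249 and 0.249. Just outside it were rpl-11.2, C18D4.6 and adm-4, at 0.25005, 0.251 and 0.251.

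The SX1263 libraries used in the tests held 3583283 to 16507895 counts on genes (median 7484386) and the EG6089 libraries 2134929 to 6102965 (median 3660163), and 3 counts, the limit that a count of 0 allows, equal 0.182 to 0.837 CPM and 0.492 to 1.41 CPM (counting error only). Levels are CPM scaled by the trimmed mean of M values (TMM), within each background separately. As a check of the labels, the met-2 row stood at 89.9 to 109 CPM in met-2 anti-GFP libraries and 326 to 425 CPM in wild type, a log2 difference of -1.93 at P0, -1.92 at F3 and -1.97 at F15 (edgeR adjusted p = 0.000227, 8.59e-07 and 0.000112). The set-25 row in set-25 mutants was lower by a difference that missed the threshold (log2 -0.54 at P0, adjusted p = 0.146, and -0.62 at F3, adjusted p = 0.227, edgeR). The set-25 row was also lower in met-2 mutants (log2 -0.50 at P0 and -0.57 at F15, edgeR adjusted p = 0.0239 and 0.00484), so it does not check the set-25 label. Small RNAs can come from a gene that is mutated in part, and neither row measures the protein.

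By annotation, 61 members are protein-coding genes and 4 (H17B01.3, Y108F1.4, Y18D10A.22 and Y73B3A.18) are pseudogenes. Only 26 of the 65 (40%) carry a three- or four-letter gene name, against 64.4% of the 6385 annotated genes with at least 10 CPM in wild-type controls. The F-box genes and pdfr-1, left out of the members by name, also carry such names and stay in the background, which lowers the members' share. The members' known or inferred roles are scattered. The members include regulators of transcription and chromatin (hlh-30, nhr-81 and dot-1.2), enzymes of lipid, nucleotide and xenobiotic metabolism (ads-1, dgat-2, nadk-1, ndx-8, gst-15 and cyp-33C2), cuticle and secreted proteins (cutl-10, grl-27, clec-12 and scl-27) and genes of sperm and embryo (spe-41 and zeel-1). Others encode a neuropeptide (nlp-40), a synaptic vesicle protein of the Flower family (flwr-1), a regulator of the intracellular pathogen response (pals-25), a calpain protease (clp-3), an arrestin-domain protein (arrd-15) and a cyclin-dependent kinase relative (cdk-14). For the genes with cosmid names no role is given here.

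Members were spread over all 6 chromosomes, with 22 on chromosome I, 13 on V, 8 each on II and IV, and 7 each on III and X. Of the 65, 49 (75.4%) lay on an autosome arm, taken as the outer 25% at each end, against 39% of the 6385 background genes. Chromosome X held 10.8% of the members and 5.59% of the background, and chromosome III 10.8% and 21.5%. The summed exon length had a median of 1168 bp (225 to 3575 bp) in members and 1535 bp in the background. These are descriptions of a list chosen by its level in met-2.

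Some members are neighbours within 50 kb (WBcel235 coordinates). On chromosome I, ndx-8 (13492983 to 13507068, plus strand) and Y87G2A.19 (13508814 to 13512024, plus strand) are 1745 bp apart with no coding gene between. On chromosome III, spe-41 (3439011 to 3444210) and K01A11.3 (3447016 to 3452613), both on the minus strand, are 2805 bp apart. W04A8.4 and W04A8.5 lie 5504 bp apart, C30F12.5 and ctg-1 5736 bp, cutl-10 and M04D5.1 36849 bp, nlp-40 and Y48G1C.5 38455 bp, and ZK250.2 and math-44 39415 bp. In all, 16 members (24.6%, against 31.8% of the background) overlap a further coding gene or pseudogene, and the strand used in counting is not given in the sources used here. Counts on those 16, among them ads-1, cdk-14, clp-3, ctg-1, dgat-2, ndx-8, C30F12.5, D2030.12, K11H12.9, R06A10.1 and W04A8.4, may include reads of the overlapping gene. D2030.12 overlaps prg-1, the gene of the worm Piwi protein, on the opposite strand.

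The first comparison asked whether the members were low in met-2 libraries that had no part in choosing them, the anti-GFP lines of SX1263. They were: 63 of 65 members were called lower than wild type at P0, 64 at F3 and 61 at F15, and none higher (edgeR's quasi-likelihood test, adjusted p under 0.05 over all genes tested). Of all genes tested, 6.57%, 13.6% and 15.9% were called lower. All 65 passed the filter on low counts in every main SX1263 fit, which holds wild-type or set-25 libraries beside the low ones. Some fits of only the compared groups, run as alternatives, tested fewer. In the main fits, 60 members were lower at all 3 generations, and the share of all genes that were so is not given here. The members' median log2 change was -2.82 at P0, -3.23 at F3 and -3.75 at F15, against -0.04, -0.02 and -0.00 over all genes. All 3 met-2 libraries lay below every wild-type library for each of the 65 members at each generation, as they did for 20.2%, 20.8% and 24.5% of all genes. The ratio of group means was at or under 0.25 for 60 members at P0, 63 at F3, 60 at F15 and 55 at all 3. In whole animals, fewer cells making these small RNAs and fewer small RNAs per cell cannot be told apart.

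Summed over the members, wild-type anti-GFP libraries held 8069 ± 286 CPM at P0 (SD, n = 2), 6867 ± 794 at F3 (n = 3) and 6242 ± 1426 at F15 (n = 3). The met-2 sums were 1456 ± 430, 809 ± 133 and 598 ± 46.6 CPM (SD, n = 3 each). No met-2 library reached a wild-type one. In set-25 the sums were 5770 ± 233 CPM at P0 and 5045 ± 741 at F3, and in the double mutant 2786 ± 447 and 2422 ± 382 (SD, n = 3 each), between met-2 and wild type.

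**Figure D1:**
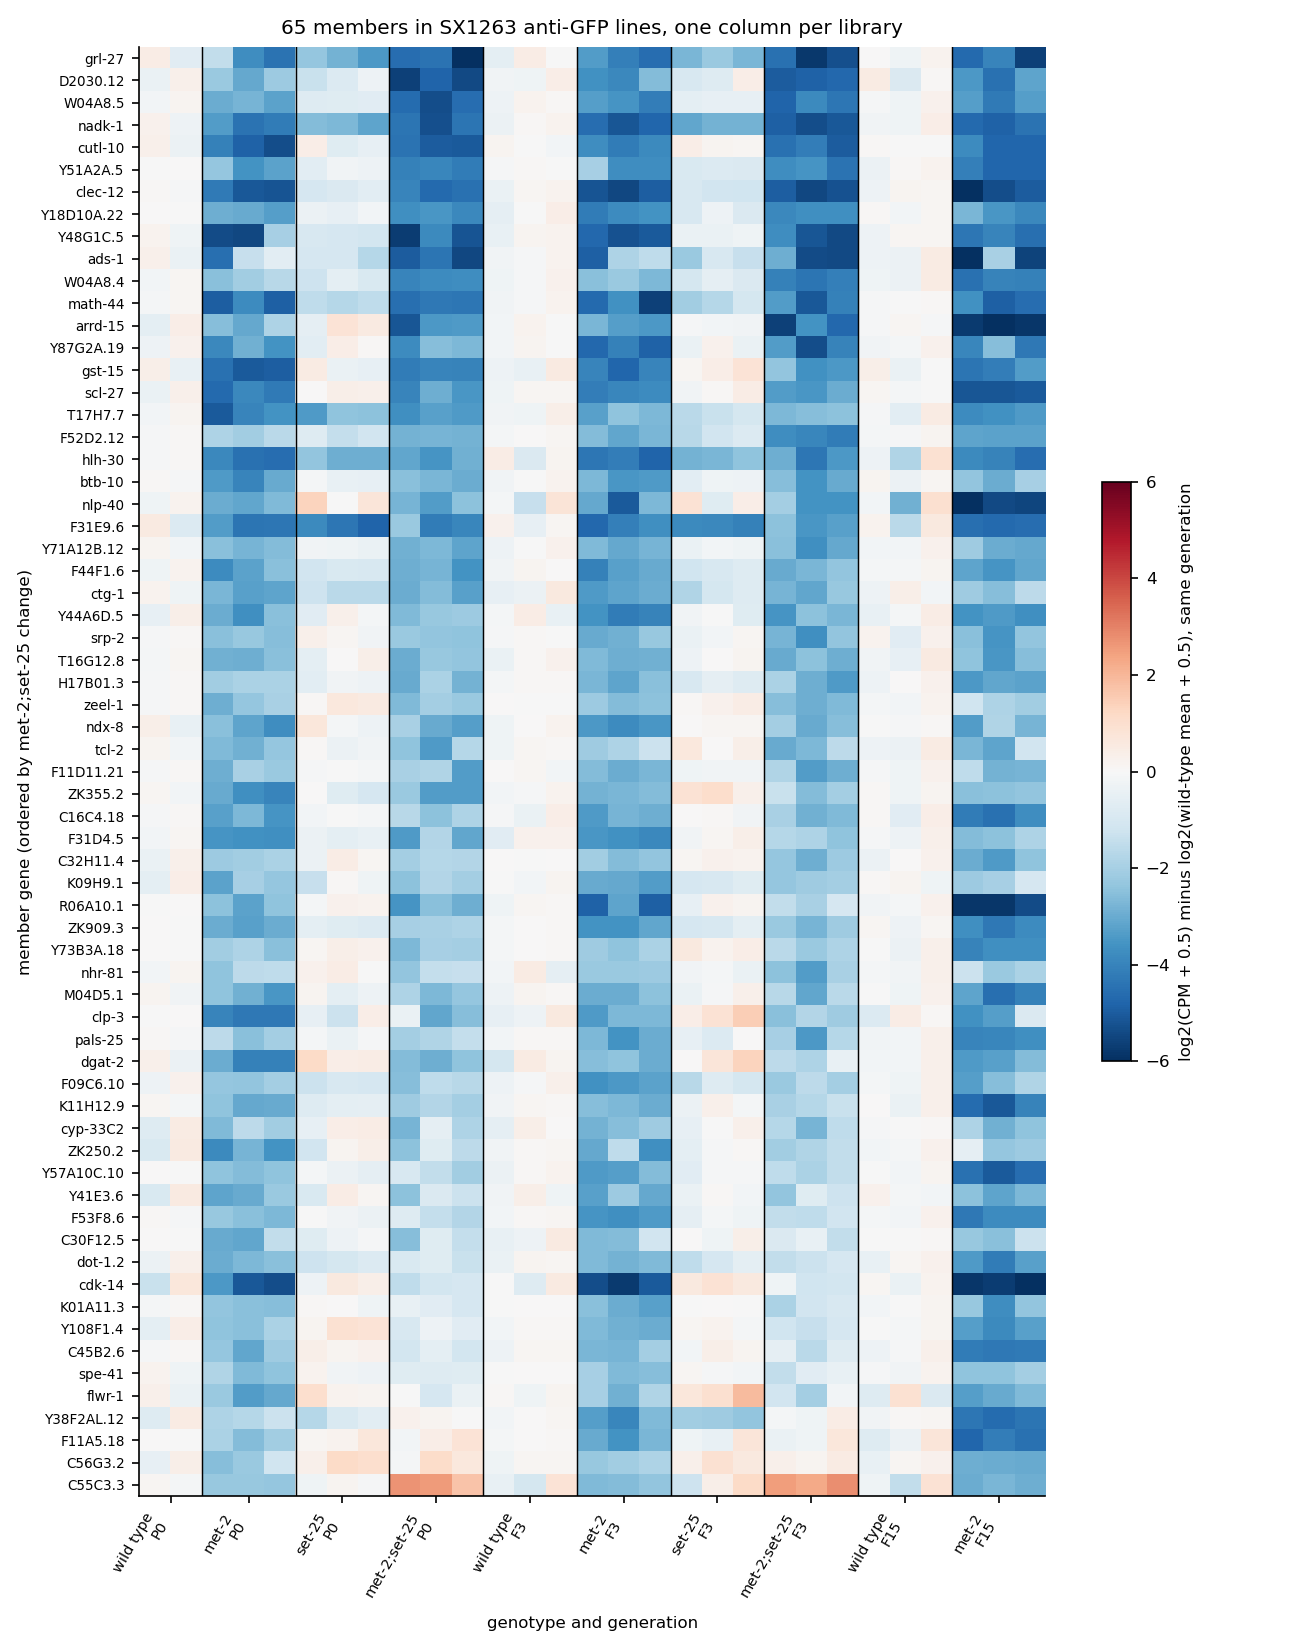
Each row is 1 of the 65 members and each column 1 SX1263 anti-GFP library, grouped by genotype and generation, coloured by log2(CPM + 0.5) minus the log2 of the wild-type mean (+ 0.5) of the same generation. The met-2 columns are blue in nearly every row, the set-25 columns are mostly pale with a few blue rows such as F31E9.6, hlh-30 and nadk-1, and C55C3.3 at the bottom is red in the double mutant.

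Among the regulators, hlh-30, which encodes a TFEB-like transcription factor of autophagy and lipid use, had 324 and 353 CPM in wild type at P0 and 22.5, 14.5 and 13.7 in met-2. At F3 it had 537, 218 and 445 CPM in wild type and 19.0, 22.3 and 13.9 in met-2. Both generations separate fully, with log2 changes of -4.34 ± 0.27 (SE) at P0 and -4.52 ± 0.43 at F3 (edgeR adjusted p = 1.2e-05 and 5.4e-05). At F15 the wild-type libraries were more spread (282, 100 and 661 CPM, against 24.2, 20.9 and 13.9 in met-2), and the change of -4.16 ± 0.82 (edgeR adjusted p = 0.019) was lost on leaving out wild-type replicate 1 or any met-2 library. dot-1.2, of the DOT1 family of histone H3 lysine 79 methyltransferases, fell to 13.4, 16.4 and 19.0 CPM at P0 from 86.3 and 134, and to 8.47, 7.39 and 8.68 at F3 from 43.2, 63.7 and 62.2. Its log2 changes were -2.76 ± 0.26 and -2.86 ± 0.26 (edgeR adjusted p = 0.00011 and 3.3e-05).

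Enzymes of metabolism are next. nadk-1, a NAD kinase gene, had 63.9, 85.4 and 94.5 CPM in wild type at F3 and 2.97, 1.85 and 2.50 in met-2, a log2 change of -5.14 ± 0.23 (edgeR adjusted p = 3.6e-07). gst-15, a glutathione S-transferase gene, had 51.9, 46.9 and 91.9 CPM against 3.57, 1.85 and 3.67, a change of -4.49 ± 0.46 (edgeR adjusted p = 8.4e-05). ndx-8, a Nudix hydrolase gene, had 159, 194 and 216 CPM against 16.8, 13.3 and 16.5, a change of -3.69 ± 0.24 (edgeR adjusted p = 4.1e-06). In all 3 genes the groups were far apart.

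ads-1, for the ether-lipid enzyme alkylglycerone phosphate synthase, behaved otherwise. Its wild-type libraries held 1753 and 1049 CPM at P0, 648, 715 and 870 at F3 and 644, 624 and 1127 at F15. The met-2 libraries held 60, 536 and 893 CPM at P0, 24.4, 206 and 259 at F3 and 10.1, 209 and 16.8 at F15. Each met-2 library was below each wild-type library, but the met-2 libraries were spread widely among themselves, and ads-1 was not called at any generation (log2 -1.49 ± 0.77, -2.25 ± 0.84 and -3.36 ± 1.32; edgeR adjusted p = 0.237, 0.0745 and 0.121). The other members missed at 1 generation were cyp-33C2, a cytochrome P450 gene, at P0 (log2 -2.09 ± 0.64, edgeR adjusted p = 0.0503), and ZK250.2, clp-3 and tcl-2 at F15. At F15, tcl-2, a gene of asymmetric cell division, had 4.43, 3.22 and 14.3 CPM in met-2 and 26.7, 25.4 and 45.7 in wild type (log2 -2.17 ± 0.64, edgeR adjusted p = 0.0507). clp-3 had 1.63, 2.19 and 13.9 CPM against 14.6, 36.2 and 27.4 (log2 -2.16 ± 0.92, adjusted p = 0.139), and ZK250.2 had 142, 40.7 and 45.4 against 180, 186 and 246 (log2 -1.43 ± 0.56, adjusted p = 0.117, both edgeR).

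Of the genes of cuticle and secreted proteins, 3 are given here. clec-12, a C-type lectin gene, had 82.3, 118 and 126 CPM in wild type at F3 and 2.53, 1.97 and 3.0 in met-2 (log2 -5.53 ± 0.24, edgeR adjusted p = 2.9e-07). grl-27, for a ground-like protein of the hedgehog-related kind, had 18.1, 37.0 and 26.6 CPM against 2.23, 1.11 and 0.668 (log2 -4.41 ± 0.55, edgeR adjusted p = 0.00026). cutl-10, a cuticlin-like gene, had 44.5, 38.7 and 35.6 CPM against 2.53, 1.73 and 2.34 (log2 -4.25 ± 0.23, edgeR adjusted p = 1.1e-06). The 3 genes separate without overlap. math-44, of the MATH domain family, was likewise at 4.46, 9.73 and 2.17 CPM against 111, 121 and 149 (log2 -4.59 ± 0.55, edgeR adjusted p = 0.00023).

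Of the genes of gametes and embryo, spe-41 encodes a sperm calcium channel needed for fertilisation. It had 66.0, 68.5 and 69.9 CPM in wild type at F3 and 16.5, 10.3 and 11 in met-2 (log2 -2.52 ± 0.26, edgeR adjusted p = 7.2e-05). Its neighbour K01A11.3 had 379.5, 381.7 and 380.7 CPM against 66.4, 48.4 and 38.9 (log2 -2.98 ± 0.24, edgeR adjusted p = 1.8e-05). zeel-1, the embryonic antidote to the sperm toxin PEEL-1, had 36.1, 34.2 and 34.5 CPM against 7.28, 5.42 and 5.84 (log2 -2.58 ± 0.16, edgeR adjusted p = 3.2e-06). No library of either genotype fell among those of the other.

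The lowest met-2 to wild-type ratio of F3 means among the members was that of cdk-14, at 0.0223, followed by clec-12 at 0.0229, Y87G2A.19 at 0.0272, Y48G1C.5 at 0.0293, the pseudogene Y18D10A.22 at 0.0294 and nadk-1 at 0.0300. cdk-14 had 200, 117 and 294 CPM in wild type at F3 and 4.61, 3.33 and 5.68 in met-2 (log2 -5.58 ± 0.43, edgeR adjusted p = 1.5e-05). Y48G1C.5 had 142, 216 and 228 CPM against 6.99, 4.68 and 5.51 (log2 -5.17 ± 0.44, edgeR adjusted p = 2.7e-05). At P0, 1 of its met-2 libraries stood apart (7.5, 6.98 and 82.1 CPM against 390 and 277), and its P0 call (adjusted p = 0.0324, edgeR) was lost on leaving out met-2 replicate 1 or 2 or either wild-type library. F53F8.6 had 409, 481 and 497 CPM in wild type at F3 and 39.8, 35.4 and 43.7 in met-2 (log2 -3.62 ± 0.17, edgeR adjusted p = 5.3e-07).

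The set-25 single mutant, in which the gene of the other methyltransferase is mutated, kept most of the members' small RNAs. Against wild type, 7 members were called lower at P0 and 8 at F3 and none higher, where 0.282% and 0.399% of all genes were called lower. The members' median log2 change was -0.22 at P0 and -0.18 at F3, against -0.01 at both over all genes. All 3 set-25 libraries were below every wild-type library for 27 members at P0 and 22 at F3 (9.09% and 6.13% of all genes), and above for 5 and 7 (15% and 10.7%). F31E9.6, F52D2.12, hlh-30 and nadk-1 were lower at both generations. ZK909.3, ctg-1 and math-44 were lower at P0 alone, and K09H9.1, Y38F2AL.12, clec-12 and grl-27 at F3 alone. The other 54 members were called at neither. With the replicate number as a block, the F3 calls for F52D2.12 and grl-27 were lost (edgeR adjusted p = 0.057 and 0.055). Leaving out any single set-25 or wild-type library left 1 to 3 calls at P0 and 2 to 4 at F3, while the changes kept their direction and much of their size, such as log2 -1.51 to -1.74 for math-44 at P0 and -0.99 to -1.19 for clec-12 at F3 where their calls were lost. DESeq2 called 11 members at P0 and 14 at F3, and a fit of only the compared groups 4 and 16. The shares of all genes called in these alternatives are not given here.

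Of these, hlh-30 had 65.4, 43.7 and 44 CPM in set-25 at P0, against 324 and 353 in wild type (log2 -2.75 ± 0.25, edgeR adjusted p = 0.00212), a call kept in every alternative. At F3 it had 55.8, 59.1 and 74.7 CPM against 537, 218 and 445 (log2 -2.68 ± 0.39, edgeR adjusted p = 0.0144), a call lost on leaving out wild-type replicate 1 or 3 or any set-25 library, with adjusted p between 0.053 and 0.093. nadk-1 had 12.7, 11.8 and 8.36 CPM at P0 against 94.8 and 63.2, and 8.90, 10.8 and 11 at F3 against 63.9, 85.4 and 94.5. Its log2 changes were -2.86 ± 0.36 and -3.004 ± 0.20 (edgeR adjusted p = 0.0117 and 8.9e-05), the first lost without set-25 replicate 2 or 3 or wild-type replicate 1. For both genes the set-25 libraries lie between those of met-2 and wild type, with no overlap.

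F31E9.6, a gene with no role given here, had the lowest ratio of set-25 to met-2 means among the members at both generations. It had 9.64, 6.6 and 4.69 CPM in set-25 at P0 and 6.61, 6.42 and 5.67 at F3, against 208 and 81.5, and 121, 71.2 and 109, in wild type. In met-2 it had 13.6, 6.44 and 6.62 CPM at P0 and 3.42, 5.30 and 7.34 at F3, ranges that overlap those of set-25. The set-25 changes were log2 -4.39 ± 0.64 at P0 and -4.03 ± 0.36 at F3 (edgeR adjusted p = 0.0201 and 0.00101), the first lost on leaving out wild-type replicate 1 or any set-25 library. The difference between the single mutants was not tested.

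**Figure D2:**
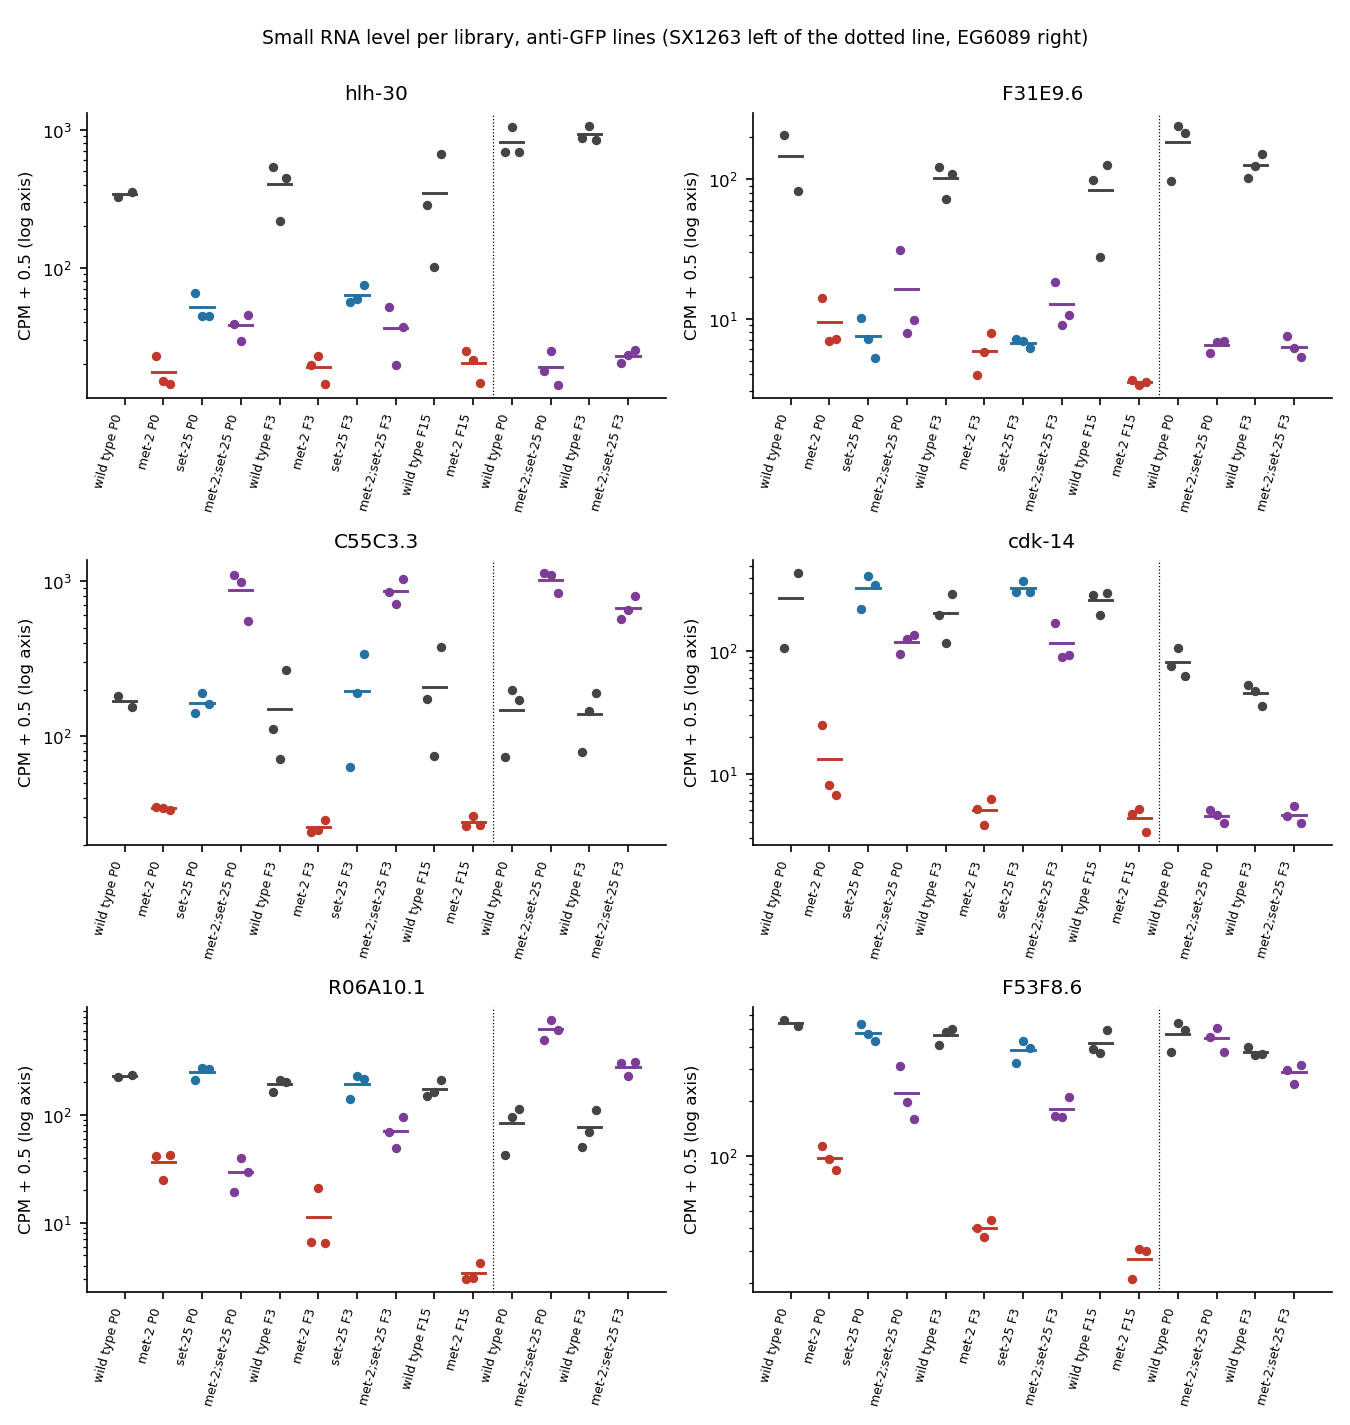
Small RNA level (CPM + 0.5, log axis) of 6 members in every anti-GFP library, 1 point per library and a bar at the group mean, with SX1263 groups to the left of the dotted line and EG6089 groups to the right. hlh-30 and F31E9.6 are low in all 3 mutant genotypes, C55C3.3 is low in met-2 but high in the double mutant of both backgrounds, cdk-14 is low in the EG6089 double mutant (3.43 to 4.96 CPM) but not in that of SX1263 (89.1 to 169 CPM), and R06A10.1 is low in the SX1263 double mutant and high in that of EG6089.

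The double mutant of SX1263 carries both mutant alleles. Against wild type, 53 members were called lower at P0 and 57 at F3, and 1 higher at each, where 7.75% and 16.4% of all genes were called lower and 9.66% and 15.5% higher. The members' median log2 change was -2.56 at P0 and -2.57 at F3, and 52 members were lower at both. The share of all genes lower at both is not given here. Of the 65, 7 (C30F12.5, C55C3.3, C56G3.2, F11A5.18, Y38F2AL.12, cdk-14 and flwr-1) were lower at neither. These comparisons share their wild-type libraries with those of met-2 and set-25. In the double mutant at F3, clec-12 had 3.07, 1.97 and 2.43 CPM (log2 -5.41 ± 0.23, edgeR adjusted p = 5e-07) and nadk-1 had 2.24, 1.53 and 1.88 (log2 -5.39 ± 0.23, edgeR adjusted p = 5e-07). Both are at about their met-2 level. ads-1, not called in met-2, had 43.6, 67.0 and 30.9 CPM at P0 and 97.5, 17.5 and 17.1 at F3 in the double mutant and was called lower at both (log2 -4.92 ± 0.85 and -4.07 ± 0.92, edgeR adjusted p = 0.00401 and 0.00836).

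C55C3.3 was the member called higher. Its small RNAs stood at 34.6, 34.1 and 32.8 CPM in met-2 at P0 and at 181 and 155 in wild type, and at 1090, 978 and 551 in the double mutant. At F3 the levels were 23.6, 24.3 and 28.5 CPM in met-2, 110, 70.5 and 266 in wild type and 844, 714 and 1023 in the double mutant. The 3 genotypes do not overlap at either generation. The double mutant exceeded wild type by log2 2.34 ± 0.27 at P0 and 2.52 ± 0.59 at F3 (edgeR adjusted p = 0.00047 and 0.0102), while set-25 alone, at 141, 190 and 161 CPM at P0 and 62.4, 189 and 336 at F3, was not called (log2 -0.04 ± 0.25 and 0.37 ± 0.56, edgeR adjusted p = 0.993 and 0.978).

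Set directly against met-2, the double mutant had more small RNA on 18 members at P0 and 25 at F3 and less on 6 and 4, where 5.75% and 13.7% of all genes were called higher and 6.25% and 9.28% lower. The median log2 difference over members was 0.62 at P0 and 0.91 at F3. Members were picked for being low in met-2, though in other libraries, and such a choice favours the higher direction here. Of the 14 members higher at both, 8 (C45B2.6, F53F8.6, K01A11.3, K11H12.9, Y57A10C.10, ZK909.3, dot-1.2 and spe-41) were also called lower than wild type at both, and so stood between in the main fits. Several of these calls depended on single libraries. On leaving out certain ones, the calls against wild type were lost for C45B2.6 at both generations and for K01A11.3 at P0. Those against met-2 at P0 were likewise lost for K11H12.9 and Y57A10C.10. F53F8.6 had 312, 197 and 159 CPM at P0 and 166, 163 and 212 at F3 in the double mutant. It exceeded met-2 by log2 1.17 ± 0.22 and 2.25 ± 0.16 (edgeR adjusted p = 0.00741 and 1.7e-05) and was below wild type by log2 -1.31 ± 0.24 and -1.37 ± 0.16 (edgeR adjusted p = 0.00507 and 0.0002), the P0 call lost without wild-type replicate 1. ZK909.3 had 57.9, 39 and 62.7 CPM at F3, against 22.3, 22.2 and 30.7 in met-2 and 252, 282 and 287 in wild type, with no overlap among the 3 (log2 1.16 ± 0.21 against met-2, edgeR adjusted p = 0.00399).

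cdk-14 had 95.4, 125 and 137 CPM in the double mutant at P0 and 169, 89.1 and 93.6 at F3, above met-2 by log2 3.22 ± 0.62 and 4.78 ± 0.42 (edgeR adjusted p = 0.00834 and 7e-05). It was not called against wild type (log2 -1.22 ± 0.61 and -0.81 ± 0.34, edgeR adjusted p = 0.194 and 0.0937). Y38F2AL.12 was low in both single mutants at F3, with 12.9, 8.38 and 20.9 CPM in met-2 and 30.9, 30.2 and 25.4 in set-25, against 118, 136 and 143 in wild type. In the double mutant it had 122, 112 and 181 CPM, a range that spans that of wild type (log2 0.05 ± 0.28, edgeR adjusted p = 0.908) and exceeds met-2 by log2 3.37 ± 0.32 (edgeR adjusted p = 9.9e-05). Its call in set-25 (log2 -2.22 ± 0.30, edgeR adjusted p = 0.0104) was lost on leaving out set-25 replicate 1 or 3 or wild-type replicate 3.

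D2030.12, F52D2.12 and W04A8.4 went the other way and were lower in the double mutant than in met-2 at both generations. W04A8.4 had 6.79, 9.13 and 12.3 CPM in met-2 at P0 and 2.14, 2.52 and 2.61 in the double mutant, and at F3 6.99, 8.62 and 6.01 against 2.07, 1.53 and 1.99. The differences were log2 -1.98 ± 0.28 and -1.84 ± 0.23 (edgeR adjusted p = 0.00147 and 0.00045). F52D2.12 had 91.1, 79.7 and 108 CPM in met-2 at P0 and 47, 47.6 and 47 in the double mutant (log2 -1.002 ± 0.17, edgeR adjusted p = 0.00463). D2030.12 had 13.8, 7.52 and 14.5 CPM against 0.902, 1.96 and 1.07 (log2 -3.18 ± 0.43, edgeR adjusted p = 0.00108), and its F3 call (edgeR adjusted p = 0.0369) was lost without met-2 replicate 3 or any double-mutant library. None of the 3 overlaps between the genotypes at P0.

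EG6089 gives the double mutant in another background, with no library shared with SX1263. Of the 65 members, 61 have rows there and all 61 were tested. F11D11.21, F52D2.12, M04D5.1 and Y38F2AL.12 were not analysed there. At P0, 47 members were called lower in controls and 50 in anti-GFP lines, and 2 higher in each. At F3, 52 and 49 were lower and 3 higher in each. Of all genes tested, 27.4%, 28.1%, 27.1% and 27.2% were called lower, and 18.5%, 20.5%, 23.7% and 23.1% higher, in the same order. The members' median log2 change was -2.98 in P0 controls, -3.30 in P0 anti-GFP lines, -2.70 in F3 controls and -2.80 in F3 anti-GFP lines, against -0.11 to -0.01 over all genes. In all, 46 members were lower in all 4 comparisons and 40 in these and both of SX1263. The shares of all genes that met the same joint conditions are not given here. The summed member level in anti-GFP lines was 7994 ± 1638 CPM at P0 and 5694 ± 341 at F3 in wild type, and 3920 ± 526 and 2695 ± 110 in the double mutant (SD, n = 3 each).

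hlh-30 was lower in the double mutant of both backgrounds, by log2 -3.21 ± 0.26 at P0 in SX1263 (edgeR adjusted p = 6.5e-05). In EG6089 it had 685, 1046 and 693 CPM in wild-type anti-GFP libraries at P0 and 17.3, 24.4 and 13.6 in the double mutant (log2 -5.49 ± 0.28, edgeR adjusted p = 1.3e-09). nadk-1 had 204, 203 and 214 CPM at F3 against 2.79, 3.04 and 3.81 (log2 -5.88 ± 0.22, edgeR adjusted p = 1.5e-10). cutl-10 had 65.9, 61.6 and 101 CPM at F3 against 0.598, 0.320 and 0.763 (log2 -6.94 ± 0.46, edgeR adjusted p = 1.5e-07), and 9 counts in all in the double mutant. cdk-14, at 53, 46.8 and 35.5 CPM in wild type at F3, fell here to 3.98, 4.96 and 3.43 (log2 -3.32 ± 0.23, edgeR adjusted p = 3.8e-08), unlike its level in the SX1263 double mutant. That difference between the backgrounds was not tested.

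Of the 61, 8 were not lower in any EG6089 comparison (C30F12.5, C55C3.3, F09C6.10, F11A5.18, R06A10.1, Y41E3.6, clp-3 and dot-1.2). C55C3.3 was again higher, with 1127, 1088 and 837 CPM in the double mutant at P0 against 73.3, 198 and 172 in wild type, and log2 changes of 2.40 to 2.99 over the 4 comparisons. R06A10.1 was higher in EG6089 and lower in SX1263. In EG6089 anti-GFP lines it had 494, 751 and 606 CPM in the double mutant at P0 against 41.6, 94.3 and 113 in wild type (log2 2.86 ± 0.50, edgeR adjusted p = 0.00031), and 301, 228 and 306 at F3 against 49.2, 68.1 and 111 (log2 1.99 ± 0.28, edgeR adjusted p = 0.00014). In SX1263 it had 18.8, 39.4 and 29.0 CPM at P0 against 225 and 230 (log2 -2.99 ± 0.31, edgeR adjusted p = 0.00024), and 68.5, 48.4 and 94.8 at F3 against 161, 210 and 201 (log2 -1.44 ± 0.42, edgeR adjusted p = 0.0248, lost on leaving out double-mutant replicate 1 or 2 or wild-type replicate 2 or 3). R06A10.1 overlaps R06A10.5 on the same strand, so which of them the reads came from cannot be told apart.

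**Figure D3:**
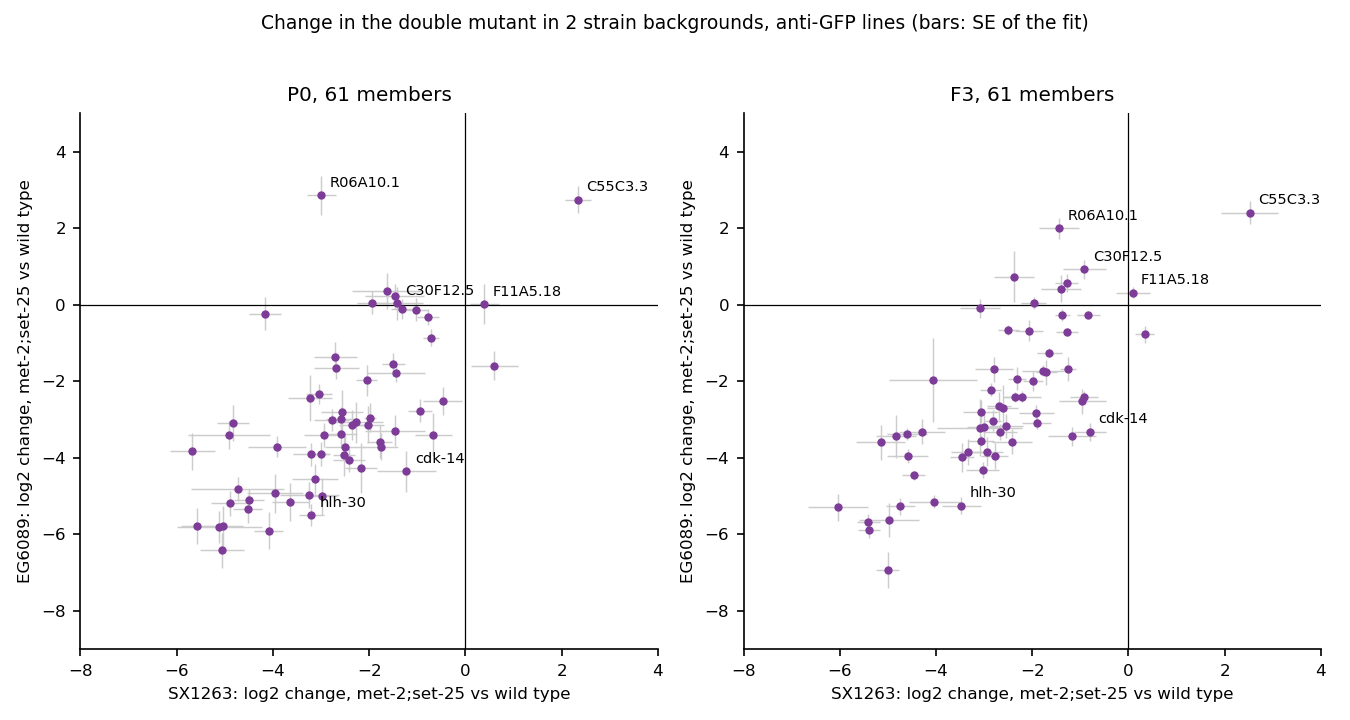
Log2 change of each of 61 members in met-2;set-25 against wild type in anti-GFP lines, SX1263 on the x axis and EG6089 on the y axis, P0 left and F3 right, with the SE of the fit as bars. Most members lie in the lower left, C55C3.3 in the upper right, and R06A10.1 in the upper left at 2.86 in EG6089 against -2.99 in SX1263 at P0.

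The calls for dot-1.2 and spe-41 varied between comparisons of the double mutant. dot-1.2 was lower in the SX1263 double mutant (log2 -1.02 ± 0.25 at P0 and -1.28 ± 0.24 at F3, edgeR adjusted p = 0.0196 and 0.00299), the P0 call lost without double-mutant replicate 3 or wild-type replicate 3. In EG6089 anti-GFP lines dot-1.2 had 944, 692 and 618 CPM in the double mutant at P0 against 567, 1121 and 714 in wild type, groups that overlap (log2 -0.13 ± 0.31, edgeR adjusted p = 0.755). spe-41 had 64.0, 63.1 and 64.2 CPM in the SX1263 double mutant at P0 against 125 and 89.7 (log2 -0.78 ± 0.23, edgeR adjusted p = 0.0406, lost on leaving out any single library of either group). In EG6089 it had 99.5, 98.9 and 108 CPM at P0 against 137, 103 and 133 (log2 -0.32 ± 0.20, edgeR adjusted p = 0.212). It was called lower there in F3 controls (log2 -0.38 ± 0.12, edgeR adjusted p = 0.0137), a call lost without double-mutant replicate 3 or wild-type replicate 3. Differences between the backgrounds were not tested.

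Across generations, a fit of the wild-type and met-2 anti-GFP groups of SX1263 asked whether members kept falling. P0 and F3 animals also differed in food, so generation and food cannot be told apart in the P0 to F3 changes. From P0 to F3, F53F8.6 and Y57A10C.10 fell in met-2 and none rose (0.375% of all genes called lower). The test of whether the 2 genotypes changed unequally called none (0.0171% of all genes called lower by edgeR, while 11 members had an unadjusted p under 0.05 and DESeq2 called 2). F53F8.6 went from 113, 96.1 and 83.5 CPM at P0 to 39.8, 35.4 and 43.7 at F3 in met-2 (log2 -1.30 ± 0.17, edgeR adjusted p = 0.00933), while wild type went from 560 and 521 to 409, 481 and 497. Y57A10C.10 went from 39.5, 34.1 and 39.4 CPM to 13.1, 14.3 and 23.5 (log2 -1.15 ± 0.21, edgeR adjusted p = 0.0395), a call lost without F3 replicate 1 or 2 or any P0 library of met-2.

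From F3 to F15, 15 members fell in met-2 and none rose, where 5.39% of all genes were called lower and 1.62% higher. A fit of only the compared groups tested 57 members in met-2, the other 8 not passing the filter without the libraries of the other groups, and called 7 of them lower, and also called 7 of 65 lower in wild type. The shares of all genes called in that smaller fit are not given here. In wild type, F52D2.12 was the 1 member called in the fit of all groups, and fell (0.0341% of all genes), after being the 1 member that rose from P0 to F3 (0.136% of all genes were called lower and 0.23% higher), and both calls were lost on leaving out wild-type F3 replicate 2 or 3, the first also without wild-type F15 replicate 1 or 2 and the second without P0 replicate 1. ZK355.2 was the 1 member that fell in wild type from P0 to F3, from 171 and 140 CPM to 52.0, 54.8 and 65.9 (log2 -1.37 ± 0.21, edgeR adjusted p = 0.0178), a call lost without F3 replicate 1 or 2 or P0 replicate 1. The change from F3 to F15 was lower in met-2 than in wild type for 7 members and higher for none, by the test of that difference. It called 1.09% of all genes lower and 0.239% higher, and wild type did not fall for all 7 members. They are arrd-15, scl-27, K11H12.9, Y73B3A.18, W04A8.4, C45B2.6 and Y57A10C.10. Without wild-type F15 replicate 3 or wild-type F3 replicate 2 the test called 3 of them, and without wild-type F3 replicate 1 or 3 or met-2 F15 replicate 2 it called 4. The calls for arrd-15 and Y73B3A.18 were kept in every alternative that tested these 65 members, while those for W04A8.4 and C45B2.6 were lost without any of 7 or more single libraries, that for K11H12.9 without wild-type F15 replicate 3 or any wild-type F3 library, that for Y57A10C.10 without wild-type F15 replicate 3 or F3 replicate 2, and that for scl-27 without met-2 F15 replicate 2.

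arrd-15 showed the largest such difference among the 7. It had 25.3, 17 and 15.4 CPM in met-2 at F3 and 1.92, 1.16 and 1.77 at F15, while wild type had 153, 200 and 169 and then 124, 141 and 124. The change in met-2 was log2 -3.56 ± 0.41 and that in wild type -0.45 ± 0.29, a difference of -3.11 ± 0.51 (edgeR adjusted p = 0.00914). On chromosome III, arrd-15 lies 0.549 Mb from met-2 itself, the closest of the 7 members on that chromosome, the farthest of which is pals-25 at 8.237 Mb. Y73B3A.18, a pseudogene, had 3.57, 2.83 and 4.34 CPM in met-2 at F3 and 0.739, 1.03 and 1.06 at F15, with 19 counts in all at F15, against 16.1, 17.5 and 18.2 and then 19.0, 15.1 and 23.7 in wild type (difference -2.02 ± 0.35, edgeR adjusted p = 0.011).

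K11H12.9 went from 4.61, 4.19 and 3.34 CPM in met-2 at F3 to 0.887, 0.515 and 1.59 at F15 (difference from wild type -2.19 ± 0.42, edgeR adjusted p = 0.0187). C45B2.6 went from 17.5, 17.1 and 29.4 CPM to 7.39, 6.96 and 7.24 (difference -1.78 ± 0.36, edgeR adjusted p = 0.0271). Y57A10C.10 went from 13.1, 14.3 and 23.5 CPM to 5.03, 3.22 and 4.59 (difference -1.71 ± 0.31, edgeR adjusted p = 0.0139). In each of them the F15 libraries lie below the F3 libraries without overlap. scl-27, of the SCP-like secreted protein family, had 3 counts in all in the met-2 F15 libraries, 1 in each, against 30 at F3 and 405 in wild type at F15. Its ratio of met-2 to wild type at F15 was 0.00717 (95% exact interval 0.00147 to 0.0211, counting error only), and that of F15 to F3 in met-2 was 0.103 (0.020 to 0.33).

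**Figure D4:**
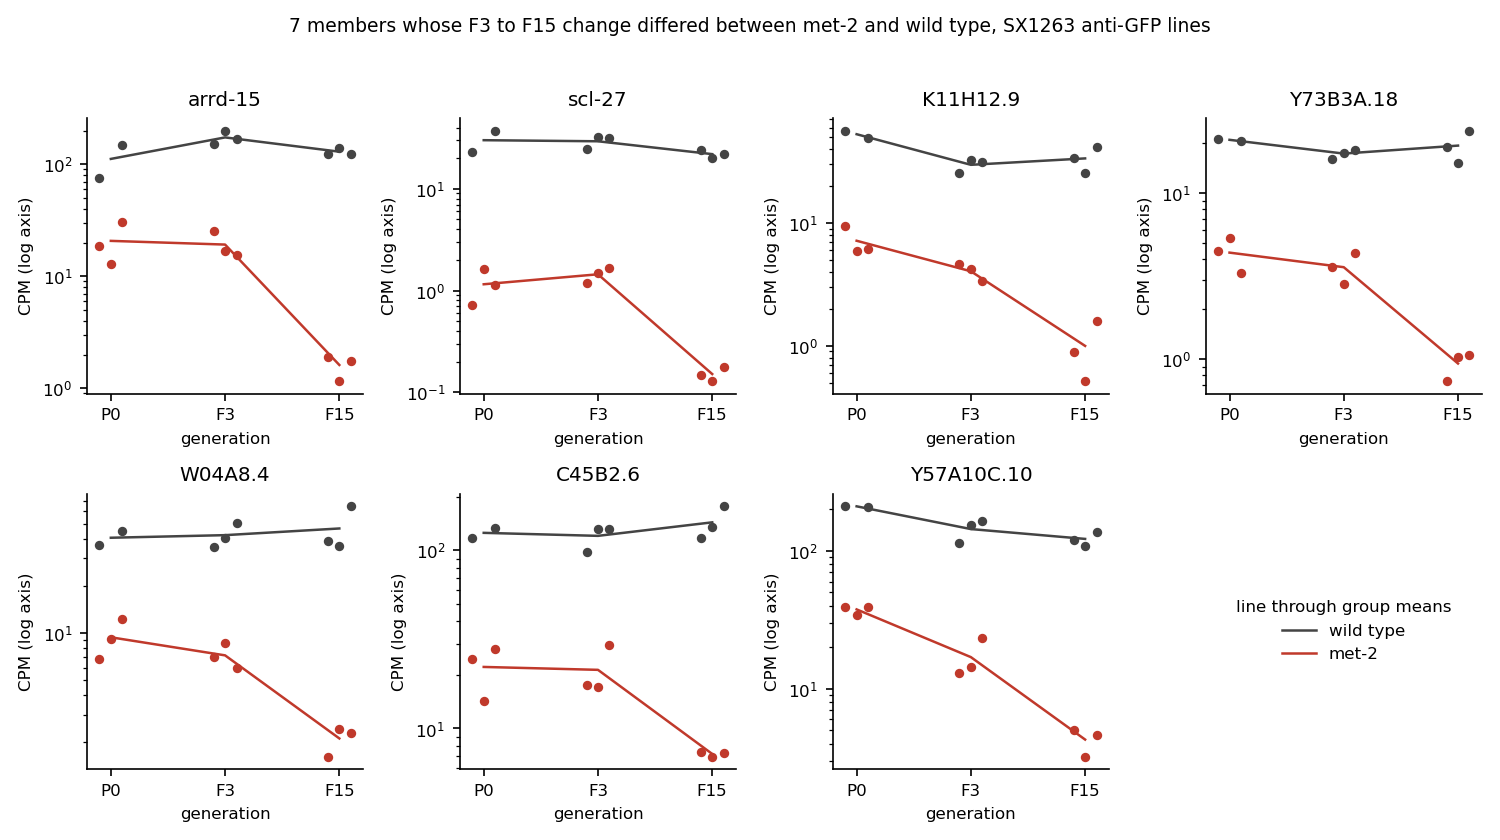
Small RNA level (CPM, log axis) of 7 members at P0, F3 and F15 in wild-type (grey) and met-2 (red) anti-GFP libraries of SX1263, 1 point per library and a line through the group means. The met-2 points drop between F3 and F15 while the wild-type points stay at a similar height, as for arrd-15, which goes from 15.4 to 25.3 CPM at F3 to 1.16 to 1.92 at F15 in met-2.

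The last comparison set anti-GFP lines against controls of the same genotype. In set-25 and in the SX1263 double mutant, none of the 65 members was called between anti-GFP and control libraries at P0 or F3 (edgeR), where at most 0.00861% of all genes were called in either direction at P0, and 0.00952% lower and 0.0286% higher in the double mutant at F3. The members with an unadjusted p under 0.05 numbered 2 and 3 in set-25 and 2 and 6 in the double mutant at P0 and F3, and DESeq2 called 1 member, in the double mutant at F3. The median log2 difference over members lay between -0.06 and 0.06 in the 4 comparisons. For wild type and met-2, whose control libraries chose the members, the medians of -0.14, -0.09 and -0.05 in wild type and -0.04, -0.26 and 0.07 in met-2 at P0, F3 and F15 are a description.

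None of the 65 is on the lists of small RNA and heterochromatin machinery. These lists and the lists of targets below were drawn up from memory. In met-2 anti-GFP lines at F3, 5 of 18 H3K9 methylation and heterochromatin genes were called lower and none higher, met-2 itself being 1 of them. Of 13 nuclear RNAi and inheritance genes 4 were lower (hrde-1 by log2 -0.36, nrde-2 by -0.46, znfx-1 by -0.29 and prg-1 by -0.36). The last of them, prg-1, overlaps the member D2030.12 on the opposite strand. Of 16 genes that amplify secondary small RNAs 2 were lower. Of 9 genes of the 26G pathway, which makes primary small RNAs, 1 was lower and 2 higher (alg-3 and alg-4). Among genes listed as targets, 7 of 13 targets of the ERGO-1 Argonaute were lower (median log2 -0.92) and none higher, and of 7 targets of the worm-specific Argonautes 3 were lower and 1 higher. The last list did not keep one direction, with none lower and 2 higher of 6 tested at P0 and 1 lower and 3 higher of 6 at F15, whereas 6 and 8 of the 13 ERGO-1 targets were lower and 0 and 1 higher. In the same comparison 13.6% of all genes were called lower and 13% higher. C18D4.6 and H09G03.1, both on the ERGO-1 list, came close to membership: the first missed the ratio threshold and the second was left out by name.

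Small RNAs on marker genes of some tissues also differed between met-2 and wild type. At F3 the summed level of 6 intestine markers was 6.30 to 6.41 CPM in wild-type and 16.7 to 262 CPM in met-2 anti-GFP libraries, with 3 of 4 tested called higher. That of 6 body muscle markers was 62.9 to 79.8 and 129 to 479 CPM. Of 5 tested, myo-3 and unc-22 were higher (log2 9.98 and 3.48) and lev-11 lower (-2.02). The summed level of 9 sperm markers was 114 to 132 and 281 to 322 CPM. Of 5 tested, fer-1 and spe-10 were higher (log2 6.06 and 3.77) and spe-41, which is a member, was lower (-2.52). Oocyte markers (1580 to 1700 and 1520 to 1780 CPM, 1 of 8 lower) and neuron markers (170 to 190 and 136 to 224 CPM, 1 of 6 higher and 1 lower) overlapped between the genotypes at F3. No marker was at 0 in every library of either F3 group. At F15 the pattern was not the same: muscle markers overlapped (60.5 to 68.7 CPM in wild type, with met-2 libraries from 22.2 CPM to above that range, none of 4 tested higher and unc-54 and lev-11 lower), as did sperm markers (114 to 152 and 112 to 225 CPM). The summed level of neuron markers was then lower in met-2 (145 to 174 and 88.8 to 110 CPM), but the genes did not share a direction. Of 5 tested, rab-3 and unc-104 were higher (log2 0.95 and 1.32) and unc-119 lower (-2.42). The summed level of intestine markers was higher (5.25 to 9.01 and 17.6 to 31.7 CPM). These are small RNAs on the marker genes, not their transcripts, and their part in the members' levels was not tested.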

How the data were processed

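Small RNA libraries of whole day 1 adults, 59 in SX1263 and 24 in EG6089 (28 groups), were analysed from the raw counts per gene that the authors deposited as 1 table per background. Reads were handled with HTSeq, Bowtie2, cutadapt, FastQC and DESeq2 on builds named WBcel235 and ce11, per the submitters' processing notes. Versions, the strand of counting, any length filter, and the kit used for each library are not given in the sources used here. Without the lengths or strand, the classes of small RNA within a gene's count cannot be told apart. The 5 HTSeq counter rows, which name no gene, held 29.2% to 42.4% of all reads in EG6089, 50.8% to 60.4% in the SX1263 libraries tested and 54.3% to 62.0% in those that chose the members, and stayed out of library sizes and tests. No 2 libraries were identical.

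The members were chosen on plain CPM of the 18 SX1263 wild-type and met-2 control libraries, with the minimum of 10 CPM read as holding at each generation. The members and gene lists were chosen with earlier results of these data known. Tests on members used the anti-GFP libraries of SX1263, the set-25 and double-mutant controls, and EG6089, so that no choosing library entered them. Counts were tested with edgeR's quasi-likelihood test (edgeR 4.0.16, limma 3.58.1, R 4.3.3) after filterByExpr (minimum count 10, minimum total 15) and TMM scaling. P-values were adjusted by Benjamini-Hochberg over all genes tested in each of the 23 comparisons, and a call is an adjusted p under 0.05. Shares of all genes are for single comparisons, and none is given for calls shared by several. Each fit held all groups of its generation and background (for generations, wild type and met-2 of all 3). The fits were tested on simulated counts with known changes. Levels in the text are TMM-scaled CPM, which differ from plain CPM by group by at most 0.15 in SX1263 and 0.33 in EG6089 on the log2 scale. Intervals and floors cover counting error only, and reads carry no molecular identifiers as far as the sources say.

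Alternatives were DESeq2 1.42.0, its size factors within edgeR, no filter, only the compared groups, the controls added to the fit, a replicate block, each library left out, and other membership thresholds. Replicate numbers come from the labels, which do not say that they mark a shared culture or day. Same-numbered libraries deviated together in all pairs (correlation over 0.1, 3 pairs) for anti-GFP against control in set-25 at both generations and in the double mutant at P0, for set-25 against wild type at F3, for the double mutant against met-2 at P0, and between generations of met-2. In other comparisons they did not, or had only 2 pairs.

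Gene positions come from the Ensembl annotation of WBcel235, to which 20159 of 20449 SX1263 rows and 19900 of 20390 EG6089 rows were matched. The genes named are the 10 members with the highest wild-type anti-GFP level, the 10 with the lowest met-2 to wild-type ratio in F3 anti-GFP lines, members not lower in some met-2 comparison, up to 6 called each way in the other comparisons, those at the threshold, neighbours, listed genes that are members, and met-2 and set-25. zeel-1 and dot-1.2, and the examples given only by role, were chosen after values were seen. No sequences are printed.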

Additional observations from a re-analysis of the deposited data

Results flagged for a closer look

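The change from F3 to F15 differed between met-2 and wild type, by the test of the difference itself (edgeR, log2 of met-2 minus that of wild type, 7 members of 65 against 1.09% of all genes called lower). It was -3.113 for arrd-15, -2.683 for scl-27, -2.189 for K11H12.9, -2.023 for Y73B3A.18, -1.861 for W04A8.4, -1.78 for C45B2.6 and -1.715 for Y57A10C.10.

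In R06A10.1, C30F12.5 and C56G3.2 every double-mutant library lay on one side of wild type in SX1263 and on the other side in EG6089. This difference was not tested, and the share of all genes that did so is not given here. R06A10.1 changed by log2 2.856 at P0 and 1.994 at F3 in EG6089 anti-GFP lines, against -2.99 and -1.44 in SX1263. At F3, C30F12.5 changed by 0.925 in EG6089 and -0.92 in SX1263, and C56G3.2 by -0.769 and 0.34, the SX1263 values not called (edgeR adjusted p = 0.139 and 0.213). The EG6089 call for C56G3.2 was lost without wild-type replicate 2 (log2 -0.60, edgeR adjusted p = 0.058). Levels of the 2 backgrounds were scaled separately.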

How the results depend on the processing

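The members' loss in met-2 and in the double mutant held its direction under every alternative run, and no result reversed. With 1 library left out, members called lower in met-2 ranged from 81.54% to 95.38% at P0, stayed at 98.46% at F3 and ranged from 89.23% to 93.85% at F15. Smaller results moved, and for those values the cause was not tested beyond the smaller groups or lists an alternative makes. Shares of all genes called under the alternatives are not given here.

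For set-25 at P0 (10.77% of members lower) the share was 16.92% with DESeq2 and with the replicate block, 6.154% with only the compared groups, and 1.538% to 4.615% with 1 library left out. At F3 (12.31%) it was 21.54% with DESeq2, 24.62% with only the compared groups and 3.077% to 6.154% with 1 library left out. For the F3 to F15 difference (10.77%) it was 4.615% with controls added, 6.154% with only the compared groups and 4.615% to 10.77% with 1 library left out. For F3 to F15 in met-2 (23.08%) it was 12.28% of 57 members tested with only the compared groups and 15.38% to 23.08% with 1 left out. In wild type (1.538%) it was 3.077% with DESeq2, 0.0% with controls added, 10.77% with only the compared groups and 0.0% to 1.538% with 1 left out. From P0 to F3, the difference (0.0%) was 3.077% with DESeq2 and 0.0% to 1.538% with 1 left out. In met-2 (3.077%) it was 12.31% with DESeq2, 7.692% with controls added, 0.0% of 54 tested with only the compared groups and 1.538% to 4.615% with 1 left out. In wild type (1.538%) it was 3.077% with DESeq2 and with only the compared groups and 0.0% to 3.077% with 1 left out. DESeq2 called 1.538% lower for anti-GFP against control in the double mutant at F3. Members lower in the double mutant than in met-2 at F3 (6.154%) were 3.077% without the filter and 3.39% with only the compared groups, and ranged from 4.615% to 7.692% with 1 left out.

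A stricter ratio threshold gave 16 members and a looser one, 0.5, gave 265. Of the 16, 25% at P0 and 31.25% at F3 were lower in set-25, 6.25% fell from F3 to F15 in met-2, in the difference, and from P0 to F3 in wild type, and 0.0% from F3 to F15 in wild type and from P0 to F3 in met-2. Against met-2, 12.5% were higher in the double mutant at P0 and 0.0% lower at P0 or F3. The replicate block moved no other share of calls by over 1.5 times. In comparisons whose replicate numbers pair the libraries it ended the calls of F52D2.12 and grl-27 in set-25 and, at an adjusted p of 0.05 (edgeR), of Y51A2A.5 from F3 to F15 in met-2.

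Depth limits the lowest members: at F15 in met-2, scl-27 had 3 counts in all and Y51A2A.5 had 2, and cannot be shown to fall further.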
